A study of Mus musculus with 2 samples.

Results

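The cells described here are γδ T cells of the mouse lung that carried a transcript of Tcrg-V4, the variable gene of the Vγ4 receptor chain, and few transcripts of the IL-17 type. They were selected on the measured values of 11 genes in the WT library. A cell was a member if it had at least 1 Tcrg-V4 UMI, 0 Tcrg-V6 and 0 Tcrg-V1 UMIs, and a UMI in fewer than 3 of 8 rule genes (Tmem176a, Tmem176b, Cxcr6, Il18r1, Aqp3, Ccr6, Icos and Serpinb1a). A UMI (unique molecular identifier) stands for 1 captured RNA molecule. Of 9139 cells in the series, 225 were members, and all of them came from the 2505 WT cells.

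The study sorted lung γδ T cells from uninfected mice aged 5 to 7 weeks and sequenced 1 droplet library per group. The WT library came from C57BL/6NCrl mice and was sorted for cells without the Vγ1 chain. The KO library came from the strain B6.Cg-Tcrgtm1lku(B6.Vg4-/-Vg6-/-), whose label gives a deletion of both the Vγ4 and the Vγ6 chain, and was sorted for cells with the Vγ1 chain. The sources used here do not state how many mice each library pooled, and genotype, sort and library cannot be told apart between the groups.

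γδ T cells recognise antigen through a γ and a δ chain, and in mice many of them take up a function while still in the thymus. One kind makes IL-17 and usually lacks CD27. The other kind makes interferon-γ, keeps CD27, and often carries Ly6C, natural killer receptors and cytotoxic genes. Vγ4 cells contribute to both kinds, which is why Tcrg-V4-bearing cells outside the IL-17 type are a group of their own.

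Membership rests on which γ variable gene a short read was assigned to, so the stretches of sequence that separate Tcrg-V4 from Tcrg-V1 are shown. Both genes lie on the plus strand of chromosome 13 in GRCm38, Tcrg-V4 at chr13:19184974-19185506 and Tcrg-V1 at chr13:19339989-19340454. The 105 bases come from the spliced transcripts of the GENCODE annotation, and capitals mark the 26 bases at which they differ.
Tcrg-V4: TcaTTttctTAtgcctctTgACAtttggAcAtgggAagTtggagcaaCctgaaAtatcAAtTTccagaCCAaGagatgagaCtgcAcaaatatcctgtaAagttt
Tcrg-V1: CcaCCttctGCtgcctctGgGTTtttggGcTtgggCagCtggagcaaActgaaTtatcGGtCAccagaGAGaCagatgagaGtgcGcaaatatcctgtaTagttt
Over 371 aligned columns the transcripts were 70.6% identical.

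The label of these cells held only in part. The 4 other genes that the label names as markers were found in most members or in a large share of them. Cd27, a costimulatory receptor, had a UMI in 67.1% of the 225 cells, and S1pr1, the receptor that draws lymphocytes out of tissue, in 59.1%. Ccl5, a chemokine of effector T cells, had a UMI in 54.2%, and Ly6c2, a Ly6C chain of memory-type T cells, in 43.6%. All 4 markers were found together in 53 members, and 28 members had none of them. Among the members, 29 (12.9%) had a UMI of Il17a, Il17f or Il23r, the IL-17 cytokines and the IL-23 receptor. The same was true of 154 of the 199 WT cells with the same Tcrg-V pattern and 3 or more rule genes, which are called IL-17-type cells here, and of 19 of 1803 KO-labelled Vγ1 cells.

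The Tcrg-V4 transcript was sparse and was not limited to members. A single Tcrg-V4 UMI was found in 170 members, and 55 had 2 or more. In the KO library this gene did not follow the genotype label, since 990 of 6634 cells there had a Tcrg-V4 UMI, whereas Tcrg-V6 had 0 UMIs. A count of 0 there allows up to 0.0452% of cells with a UMI and does not limit the cells that express the gene. In KO-labelled cells with a Tcrg-V1 UMI and fewer than 3 rule genes, the comparison group used below, the share with a Tcrg-V4 UMI was 17.7% (95% Clopper-Pearson interval 16.0 to 19.5, counting error only). It was 9.48% in the 696 WT cells with Tcrg-V6 UMIs, and 1 of 55 WT cells with 3 or more B cell or myeloid markers and no CD3 or Trdc UMI had one. Those 55 cells had a median of 2586 UMIs, against 3688 in the 696. The constant genes did not separate the members from the KO-labelled Vγ1 cells. Tcrg-C4, which joins Vγ1 chains, had a UMI in 22.2% of members and in 25.1% of KO-labelled Vγ1 cells, and Tcrg-C1, which joins Vγ4 chains, in 15.6% and 12.2%. Tcrg-C4 did not separate the IL-17-type cells from the KO-labelled cells either, at 21.6% against 25.1% with overlapping intervals. Tcrg-C1 without a Tcrg-C4 UMI did separate these groups, at 18.1% (13 to 24.2) against 7.6% (6.42 to 8.92). By that measure the members stood between them at 12.0%, with an interval that overlapped those of both groups. Tcrg-C1 and Tcrg-C2 are 94.4% identical, so reads of these 2 genes are uncertain. The other Tcrg-V genes ran the way the labels say, with Tcrg-V1 in 2880 of 6634 KO-labelled and 196 of 2505 WT cells and Tcrg-V6 in 754 WT cells. Every direction against the KO-labelled cells rests on that library's label.

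The members had a median of 3553 UMIs and 1594 genes per cell, against 3893 and 1746 in the 1803 KO-labelled Vγ1 cells and 3357 and 1520 in the 199 IL-17-type cells. UMIs summed to 930942, 8074106 and 726214. Xist, the transcript of the silent X chromosome in females, had a UMI in 43.1% of members and a Y-linked gene in 22.7%, against 53.7% and 0.721% of KO-labelled Vγ1 cells, so the sexes were mixed differently. Of the members, 8 had no UMI of Cd3d, Cd3e, Cd3g or Trdc, 7 had 3 or more of 10 myeloid markers and 3 had 3 or more of 7 B cell markers. Summed over each list, the myeloid markers stood at 1054 CPM (UMIs scaled to a total of 1000000) in members, 503 in KO-labelled Vγ1 cells and 215 in IL-17-type cells, and the B cell markers at 186, 78.6 and 95 CPM. The 4 NK markers summed to 174, 38.1 and 4.13 CPM, with 3 or more in 1 member, and the 6 αβ T cell markers to 1279, 1583 and 753 CPM. The part of other cells in the results was not tested beyond leaving out such cells. Of these, 5 of the 10 myeloid markers and both red cell markers had 0 UMIs in the members. Both libraries shared 23 cell barcodes, 3 of them those of members.

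With 1 library per group no test was possible. The UMIs of a group's cells were added up per gene and expressed as CPM, and groups were compared by the log2 ratio of CPM with its exact conditional 95% interval. These intervals, and those of shares, cover counting error only. A gene entered a comparison if both groups together held at least 30 UMIs of it and if 10% or more of the cells of 1 group had it.

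The δ chain was a readout that the rule did not use. Among the members, 130 cells had UMIs of exactly 1 δ variable gene, 60 had more than 1 and 35 had none. Trav13-4-dv7, a variable segment that can be built into α or δ chains, was the gene in 66 of the 130 cells (50.8%, 41.9 to 59.6). Trdv5, the Vδ5 segment, was the gene in 37 (28.5%, 20.9 to 37.0), Trdv2-2 in 24 (18.5%, 12.2 to 26.2) and the Trav15-dv6 family in 3. In KO-labelled Vγ1 cells Trav13-4-dv7 was the gene in only 65 of 942 cells (6.90%, 5.37 to 8.71), and in IL-17-type WT cells in 11 of 133 (8.27%, 4.2 to 14.3). The intervals of the members do not overlap those of either group.
The ends of both leading δ segments, as GENCODE gives their transcripts on GRCm38, are printed in lower case because no base is singled out. Trav13-4-dv7 lies on the plus strand at chr14:53757356-53757921 and Trdv5 on the minus strand at chr14:54148662-54149294.
Trav13-4-dv7: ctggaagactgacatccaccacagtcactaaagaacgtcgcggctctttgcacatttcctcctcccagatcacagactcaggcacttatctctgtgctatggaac
Trdv5: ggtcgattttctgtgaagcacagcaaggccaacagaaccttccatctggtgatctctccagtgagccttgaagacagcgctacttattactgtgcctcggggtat

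Some of the other δ genes also separated the members from the KO-labelled cells. Trdv2-2 did not, at 18.5% (12.2 to 26.2) in members and 22.8% (20.2 to 25.6) in KO-labelled Vγ1 cells. The Trav15-dv6 family, which led in KO-labelled Vγ1 cells with 283 of 942 cells, was found alone in 3 of 130 members. Trdv1 was the gene in 19.2% of those KO-labelled cells and in 0 of 130 members. The IL-17-type WT cells were led by Trdv5, with 77 of 133 cells (57.9%, 49.0 to 66.4), and then by Trdv2-2 with 31.6%. In members Trdv5 stood at 28.5%, below the IL-17-type cells and above the 13.1% of KO-labelled Vγ1 cells. Trav13-4-dv7 has close relatives in the genome, of which Trav13d-4 is 97.9% identical over 331 aligned columns, so its reads could be shared with them. All other Trav13 genes together had 26 UMIs in the members, against 540 of Trav13-4-dv7.

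**Figure D1:**
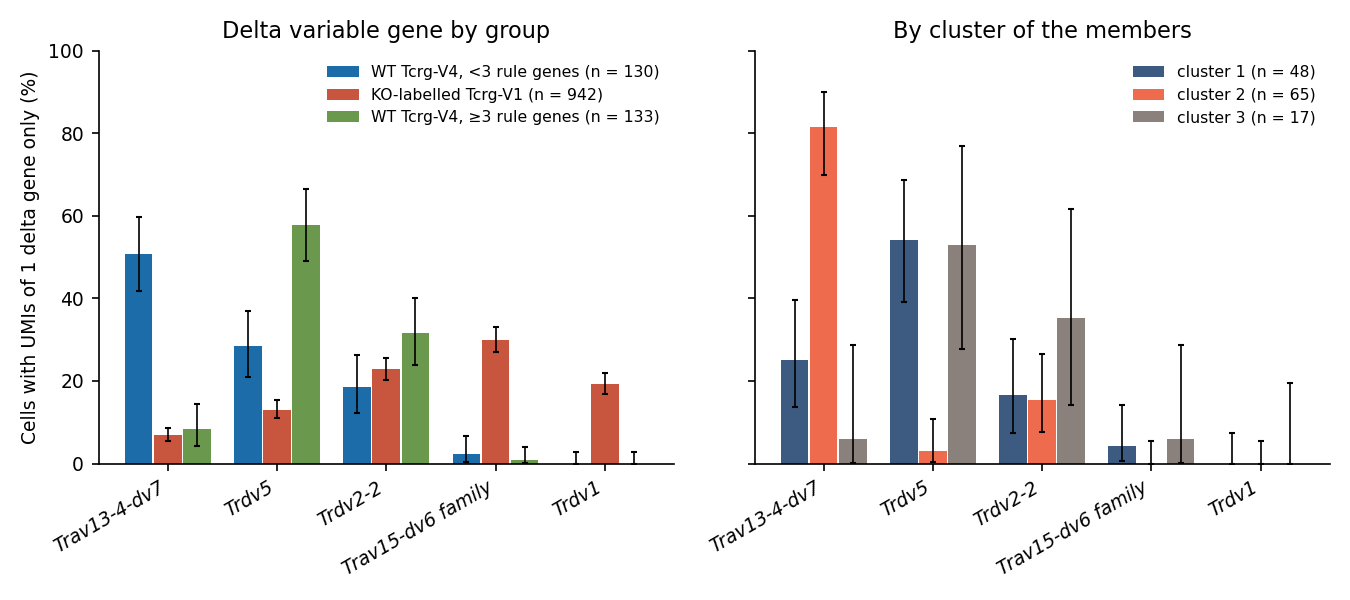
Share of cells (%) whose only δ variable gene was the one named on the x axis, by group on the left and by cluster of the 225 members on the right. Lines are 95% Clopper-Pearson intervals and n counts the cells with UMIs of 1 δ gene. Trav13-4-dv7 stands at 50.8% in members against 6.90% and 8.27% in the other groups, and at 81.5% in cluster 2 against 25% in cluster 1.

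δ chain use differed with the Ccl5 and Ly6c2 state of the cells, a division chosen after the values were seen. Of 62 members with UMIs of both Ccl5 and Ly6c2 and of 1 δ gene, 49 carried Trav13-4-dv7 (79.0%, 66.8 to 88.3) and 10 carried Trdv2-2. Of 51 members with neither Ccl5 nor Ly6c2, 7 carried Trav13-4-dv7 (13.7%, 5.70 to 26.3) and 30 carried Trdv5 (58.8%, 44.2 to 72.4). The members with both genes were the deeper cells, with a median of 4533.5 UMIs against 2915. With every cell thinned to 2000 UMIs, and the rule applied anew, the shares of Trav13-4-dv7 were 83.3% and 18.8%. With at least 2 Tcrg-V4 UMIs required the share was 66.7% of 15 cells with both genes, and 0 of 8 cells with neither.

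The same split was seen in cells that the rule had not taken. WT cells without a UMI of Tcrg-V1, Tcrg-V4 or Tcrg-V6 and with fewer than 3 rule genes numbered 852. They came from the same library as the members and were a mixed group, with a median of 2736 UMIs. Of the 852, 188 had no CD3 or Trdc UMI, 38 had 3 or more myeloid markers and 27 had 3 or more B cell markers. Their shares are given without thinning. Of those with both Ccl5 and Ly6c2 and 1 δ gene, 86 of 151 carried Trav13-4-dv7 (57.0%, 48.7 to 65.0), and of those with neither, 14 of 182 (7.69%, 4.27 to 12.6). In KO-labelled Vγ1 cells the shares were 8 of 188 (4.26%, 1.86 to 8.21) and 39 of 503 (7.75%, 5.57 to 10.4), and these intervals overlapped. IL-17-type cells gave only 2 cells with both genes and 1 δ gene. In WT cells with Tcrg-V6 and without Tcrg-V4 UMIs, cells that mostly use another δ chain, 2.78% had any Trav13-4-dv7 UMI, against 71.3% of the members with both Ccl5 and Ly6c2 and 14.1% of those with neither.

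**Figure D2:**
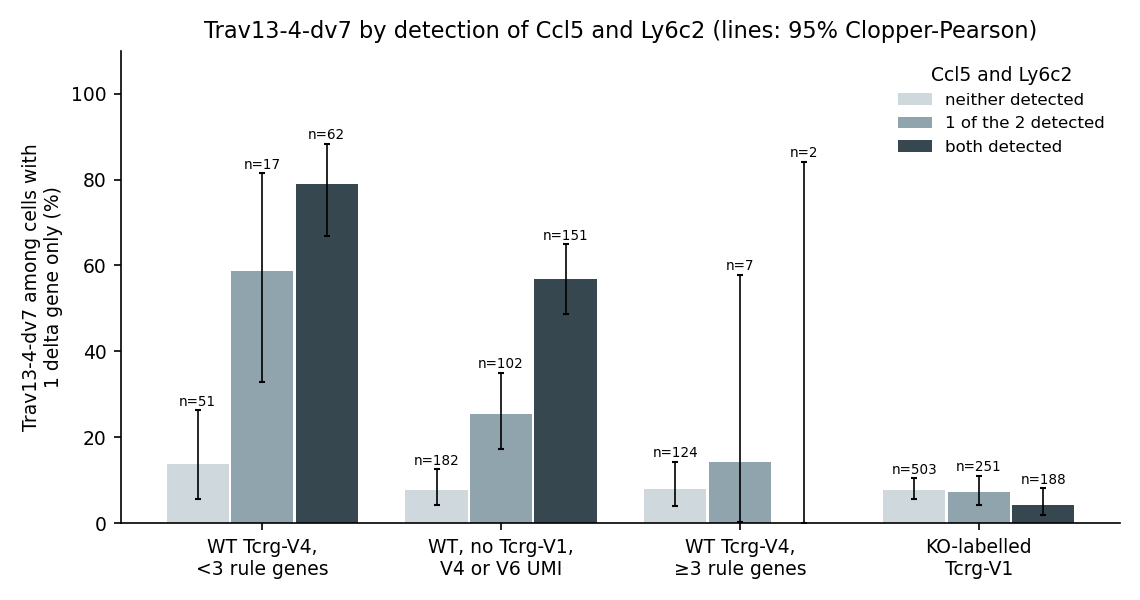
Share of cells (%) whose only δ variable gene was Trav13-4-dv7, split by whether UMIs of neither, 1 or both of Ccl5 and Ly6c2 were found, in 4 groups of cells. Lines are 95% Clopper-Pearson intervals and n is the number of cells. In members the share is 13.7% with neither and 79.0% with both, in WT cells without the 3 Tcrg-V genes 7.69% and 57.0%, and in KO-labelled Vγ1 cells 7.75% and 4.26%.

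Clustered on their own, without TCR, sex-linked, mitochondrial, rule and immediate-early genes, the 225 members fell into 3 clusters. The genes that lead a cluster are given as a description of how the cells were divided, with no test. Cluster 1 held 97 cells and was led by 2610307P16Rik, Hdac9, Sox5, Cd24a, Gria3, Rmnd5a, St8sia1 and Sox4. Hdac9 had a UMI in 42.3% of its cells against 3.12% of the other members. Cd24a, a surface protein of immature lymphocytes, was at 40.2% against 4.69%, and Sox4, a transcription factor of developing lymphocytes, at 35.1% against 5.47%. Ccr7 and Lef1, genes of naive-type T cells, stood at 682 and 601 CPM against 416 and 363 in cluster 2. Pdcd1, which encodes the receptor PD-1, stood at 726 CPM against 171. Some genes of the IL-17 lineage list were also found more often than in cluster 2. 5830411N06Rik, which the paper used to annotate IL-17 Vγ4 cells, had a UMI in 30.9% of cells against 4.17%. Ramp1 stood at 22.7% against 3.12%, and Maf at 17.5% against 6.25%. Others of the list went the other way, among them Il7r (66.0% against 79.2%) and Rora (30.9% against 40.6%).

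Cluster 2 held 96 cells and was led by Klrc1, Samd3, Cxcr3, Serpinb9, Fasl, Tbx21, Ly6c2 and Ctla2a. Ccl5 was found in 99.0% of its cells and Ly6c2 in 88.5%. Klrc1, a natural killer receptor chain, was found in 52.1%, Tbx21, the T-bet regulator of type 1 immunity, in 26.0% and Fasl in 27.1%. All 27 Ifng UMIs of the members lay in this cluster, in 17.7% of its cells. The Cd27 share was 77.1%, near the 67.0% of cluster 1, and S1pr1 stood at 58.3% and 70.1%.

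Cluster 3 held 32 cells and went furthest against the label. It was led by Il17a, Atf3, Il23r, Nav2, Pde5a, Fam110a, Bcl2a1b and Cdkn1a. Il23r was found in 62.5% of its cells and Il17a and Il17f in 28.1% each, and Ccl5, Ly6c2 and Nkg7 had 0 UMIs. A count of 0 allows up to 9.38% of cells with a UMI, and at this depth sets no limit on cells that express the gene. Of the 29 members with an IL-17 or Il23r UMI, 23 lay here. Its immediate-early and heat shock genes, which were left out of the clustering, summed to 13648 CPM against 3590 and 3443 in clusters 1 and 2, and its cells had a median of 2621 UMIs against 3492 and 4226.5. In this cluster 20 of 32 cells had 2 rule genes, the highest number that the rule admits. All 32 stayed together in 3 of 4 other runs of the clustering and 31 of 32 in the fourth, whereas clusters 1 and 2 were each split at the finest resolution, and at the resolution used another seed kept 67 of the 97 cells of cluster 1 together.

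**Figure D3:**
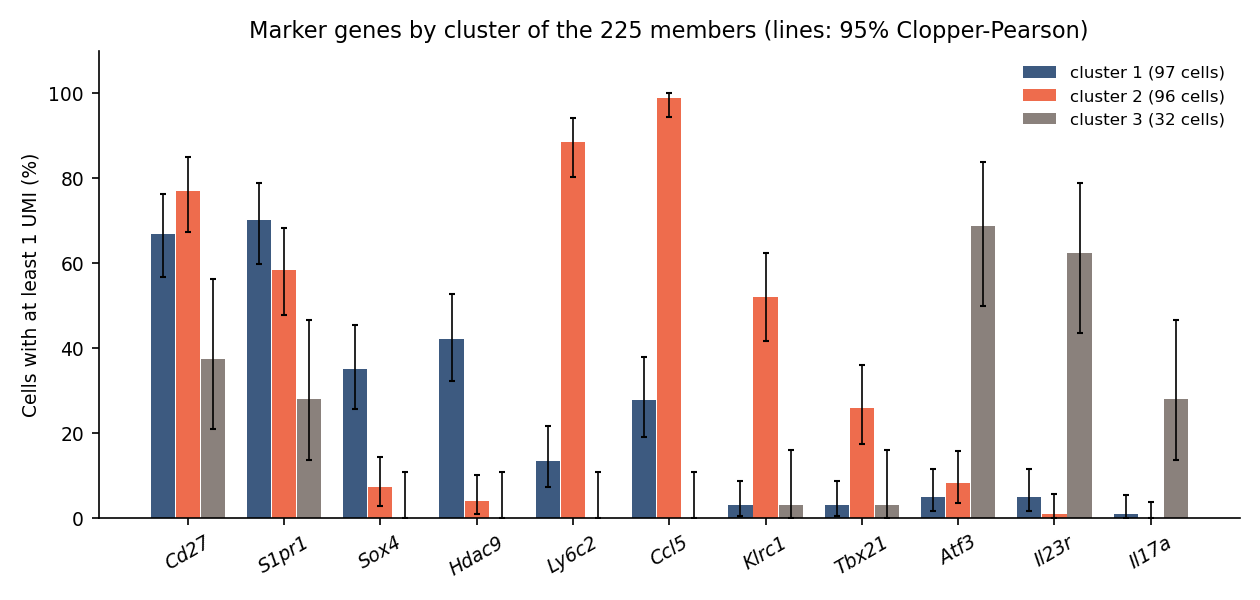
Share of cells (%) with at least 1 UMI of each gene in the 3 clusters of the 225 members, with 95% Clopper-Pearson intervals. Ccl5 and Ly6c2 stand at 99.0% and 88.5% in cluster 2 and at 0 in cluster 3, where Il23r is at 62.5%.

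δ chain use differed between these clusters, although no TCR gene had entered the clustering. Trav13-4-dv7 was the gene in 53 of 65 cells of cluster 2 (81.5%, 70.0 to 90.1) and in 12 of 48 cells of cluster 1 (25%, 13.6 to 39.6). Trdv5 was the gene in 2 of 65 (3.08%, 0.375 to 10.7) and 26 of 48 (54.2%, 39.2 to 68.6). In cluster 3 Trdv5 was the gene in 9 of 17 cells and Trdv2-2 in 6, and Trav13-4-dv7 in 1. The γ constant genes were also left out of the clustering. Tcrg-C1 without Tcrg-C4 was found in 18.6% of cluster 1 (11.4 to 27.7) and 5.21% of cluster 2 (1.71 to 11.7), intervals that just overlap, and Tcrg-C4 in 23.7% and 21.9%.

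Within single members, several type 1 genes were found together and mostly apart from the IL-17 genes. Gzma did not follow them, with a UMI in 12 of the 98 members with Ly6c2 and 14 of the 127 without. Of 98 members with Ly6c2, 94 also had Ccl5, 86 had Nkg7 and 63 had Klrd1, whereas among the 127 without it the numbers were 28, 46 and 22. None of the 122 members with Ccl5 had an Il17a or Il17f UMI, and 1 had Il23r. All 32 members with Cxcr3, a chemokine receptor of type 1 T cells, had Ccl5. Of the 26 members with Il23r, 8 had Il17a and 8 had Il17f, and none had Gzma or Sox4. Tbx21, Cxcr3 and Il12rb2 were each found in 1 of these 26. These counts move with the depth of the cells.

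The rule sets a threshold at 3 rule genes, and the cells on both sides of it were compared as a description. In the 49 members with 2 rule genes and the 49 WT cells with 3, Il17a was found in 10.2% and 38.8%, Il23r in 36.7% and 46.9%, Ccl5 in 34.7% and 12.2%, and Ly6c2 in 30.6% and 8.16%. Among the 93 members with 0 rule genes Il17a had 0 UMIs, Il23r was found in 2.15% and Ccl5 in 50.5%. Among the 83 with 1 rule gene Il17a was found in 6.02%, Il23r in 7.23%, Ccl5 in 69.9% and Ly6c2 in 53.0%. Ccl5 and Ly6c2 were thus most often found with 1 rule gene. Those cells were also deeper, with a median of 4042 UMIs against 3447, 3361 and 3155 with 0, 2 and 3 rule genes. As CPM, Ly6c2 fell steadily from 0 to 3 rule genes, at 811, 739, 575 and 76.9. Ccl5 stood at 4075, 5931, 2735 and 1043 CPM, with no steady order.

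Against the IL-17-type cells of the same library, 388 of 5400 genes (7.19%) were at least 2-fold higher in members and 317 (5.87%) at least 2-fold lower. The rule used this contrast, since the rule genes divide the groups, so the values below are descriptions. Of 19 genes of the IL-17 lineage list that entered, 18 were at least 2-fold lower in members, with a median log2 ratio of -2.88. Il17a stood at 48.3 CPM in members and 364 in IL-17-type cells, and Il23r at 45.1 and 270 CPM. Blk, a kinase of IL-17-making γδ cells, stood at 18.3 and 189 CPM, and Maf, a regulator of their lineage, at 43.0 and 224 CPM.

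The type 1 and cytotoxic list lay on the other side. Of its 26 genes 14 entered, of which 9 were at least 2-fold higher in members and 1, Klrk1, lower, with a median of 3.20 beside 0.07 over all genes. Ccl5 stood at 4574 CPM in members and 421 in IL-17-type cells (log2 ratio 3.44, 3.27 to 3.61), but all 306 UMIs of the latter came from 13 cells. Klrc1 had 158 UMIs against 6, a log2 ratio of 4.36 (3.21 to 5.83), and Klrd1, its partner chain, 178 against 9 (3.95, 2.99 to 5.10). Nkg7, a protein of cytotoxic granules, stood at 494 and 49.6 CPM, and Il12rb2, a chain of the IL-12 receptor, at 159 and 15.1 CPM. Tbx21 had 34 UMIs against 1, which gives a log2 ratio of 4.73 with an interval from 2.15 to 10.07. Klrk1, the receptor NKG2D, was lower in members, with a UMI in 18.7% of cells against 46.7% (-1.47, -1.87 to -1.08).

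Of the recirculation and naive-type list, 8 of 16 genes were at least 2-fold higher in members and 1 was lower. The list's median log2 ratio was 0.89, and single genes ran from -1.22 to 3.85. The counting intervals of its middle genes averaged 0.60 to 1.19, which leaves out the spread between genes. Ccr7, the receptor for entry into lymph nodes, stood at 506 and 92.3 CPM (2.46, 2.08 to 2.85), and Lef1, a transcription factor of naive T cells, at 443 and 99.1 CPM (2.16, 1.79 to 2.54). Cd28, a costimulatory receptor, had 111 UMIs against 6 (3.85, 2.68 to 5.33). Ikzf2, Actn1, Foxp1, Tcf7 and Cd27 lay between 1.08 and 3.13. S1pr1 was within 2-fold (0.71, 0.41 to 1.02), and so was Klf2 (0.57, 0.23 to 0.92), the factor that controls S1pr1. Itgb7, an integrin chain, was lower in members (-1.22, -1.52 to -0.93).

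Most GIMAP genes and a part of the TCR signalling and interferon lists were at least 2-fold higher in members than in IL-17-type cells. Of 21 TCR signalling genes 8 were at least 2-fold higher, 12 were within 2-fold and 1 was lower. Those higher included Lck, the kinase that starts TCR signals (279 and 39.9 CPM), Themis (98.8 and 5.51 CPM) and Prkch (504 and 121 CPM). The lower gene, Rasgrp1, stood at 32.2 and 84.0 CPM. All 8 GIMAP genes, GTPases of lymphocyte survival, were above 0 and 7 were at least 2-fold higher, with Gimap6 at 744 and 151 CPM and Gimap4 at 390 and 48.2 CPM. Of 14 interferon-stimulated genes 7 were at least 2-fold higher and 7 within 2-fold, led by Ifi27l2a at 371 and 33.0 CPM.

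Some genes of stress and residency were lower in members. Of 10 immediate-early and heat shock genes 5 were at least 2-fold lower in members, among them Atf3 (135 and 582 CPM) and Fos (682 and 2010 CPM). Of 7 tissue residency genes Itgae, the chain CD103, and Rgs1 were at least 2-fold lower. Of 9 lineage regulators Sox4 and Bcl6 were at least 2-fold higher and none was lower. Ly6c2, Ms4a6b and Ms4a4b of the Ly6 and memory list were higher, and Ly6a and Cd44 lower. Of 9 TCR-induced genes only Pdcd1 passed 2-fold, at 431 and 121 CPM, and of 2 cycling genes only Stmn1.

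The genes with the highest ratios against IL-17-type cells were Fcer1g, Ms4a6c, Cd6, Tbx21, Gm8369, Klrc1, Themis, Plek, Samd3 and Ly6c2. Fcer1g, a signalling chain of Fc and natural killer receptors, had 200 UMIs in 46 members against 1 UMI, a log2 ratio of 7.29 with an interval from 4.79 to 12.60. It was found in 39.6% of cluster 2, in which no cell lacked a CD3 or Trdc UMI, and in 8.25% of cluster 1, which held 6 of the 8 members that did. Without the cells that lacked these UMIs or had 3 or more B cell or myeloid markers, Fcer1g had 124 UMIs against 1 (6.71, 4.2 to 12.02). With no filter on cells it had 201 against 22 (2.85, 2.21 to 3.56). The lowest ratios were those of Ltb4r1, Zfp462, Mmp25, Cystm1, Sdc1, Kcnk1, Tnfrsf25, Hk2 and Rbpms2. Mmp25 had 8 UMIs in members against 132 (-4.40, -5.64 to -3.38), and Ltb4r1, a leukotriene B4 receptor, 1 against 30 (-5.27, -10.62 to -2.68).

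Against the KO-labelled Vγ1 cells, 123 of 5572 genes (2.21%) were at least 2-fold higher in members and 76 (1.36%) at least 2-fold lower. These counts were below those against the IL-17-type cells, but the order depended on the filters. With at least 2 Tcrg-V4 UMIs per member they were 285 and 255 against KO-labelled cells and 220 and 200 against IL-17-type cells, and with a minimum of 10 UMIs and no minimum share 1016 and 617 against 1010 and 633. The Cd27 level was the same within counting error, at 426 CPM (386 to 471) and 405 CPM (392 to 420). S1pr1 stood at 300 and 388 CPM, a log2 ratio of -0.37 (-0.55 to -0.20), and was found in 59.1% and 72.8% of cells. Ly6c2 stood at 733 and 365 CPM (1.01, 0.88 to 1.13) and Ccl5 at 4574 and 2101 CPM (1.12, 1.07 to 1.17). With every cell thinned to 2000 UMIs these ratios were 0.62 and 0.68, below 2-fold, and Ly6c2 was below 2-fold under 5 further alternatives (0.81 to 0.99). Ly6c2 is 97.6% identical to Ly6c1, and both together stood at 763 and 395 CPM.

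**Figure D4:**
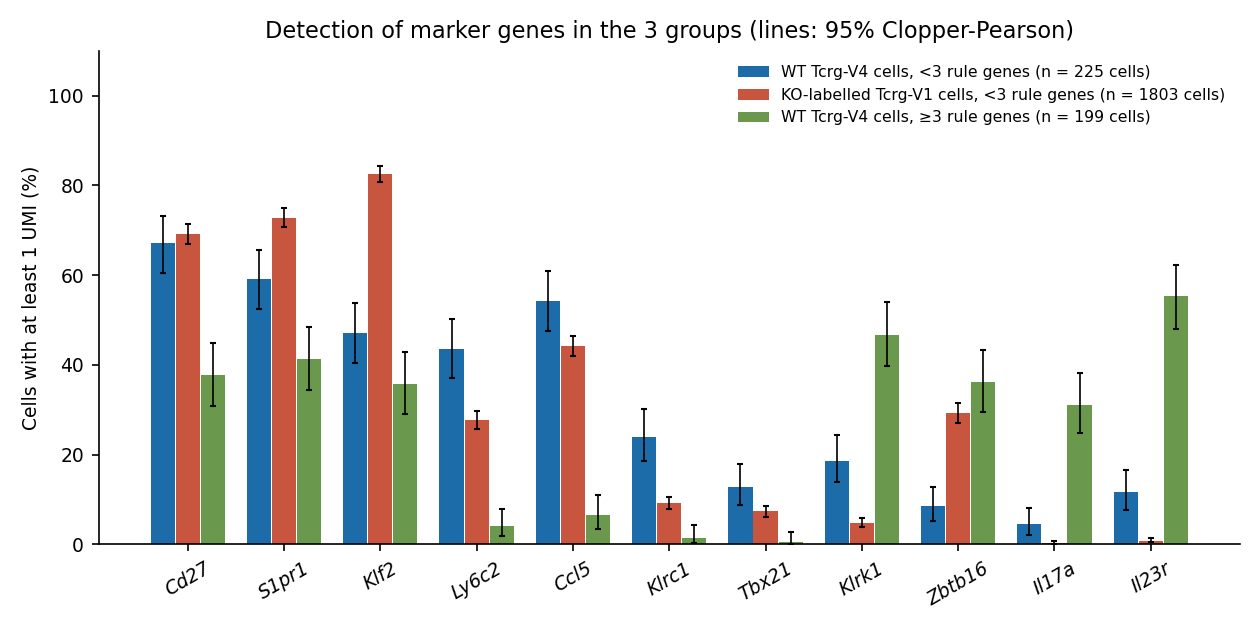
Share of cells (%) with at least 1 UMI of 11 genes in the members (225 cells), the KO-labelled Vγ1 cells (1803) and the IL-17-type WT cells (199), with 95% Clopper-Pearson intervals. Ly6c2 is found in 43.6%, 27.7% and 4.02%, Klf2 in 47.1%, 82.6% and 35.7%, and Zbtb16 in 8.44%, 29.2% and 36.2%.

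Genes of recirculation and of the naive state were level or lower in the members. Of 17 genes that entered, none was at least 2-fold higher and Klf2 and Igfbp4 were at least 2-fold lower, and 15 lay below 0, with a median of -0.30 beside -0.05 over all genes. Klf2 stood at 222 CPM in members and 854 in KO-labelled Vγ1 cells (-1.94, -2.15 to -1.74). Igfbp4 had a UMI in 9.78% and 25.4% of cells (-1.28, -1.67 to -0.92), but stood at -0.27 with at least 2 Tcrg-V4 UMIs. Lef1 (-0.75, -0.90 to -0.61) and Tcf7 (-0.57, -0.74 to -0.40) were lower by less than 2-fold, and Ikzf2, Foxp1 and Bach2 had intervals that include 0.

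Of the type 1 and cytotoxic list, 5 of 14 genes were at least 2-fold higher in members and none was lower. Klrk1 was found in 18.7% of members and 4.83% of KO-labelled Vγ1 cells (2.26, 1.85 to 2.66), and Klrc1 in 24.0% and 9.15% (1.77, 1.5 to 2.04). Klrc1 is 85.2% identical to Klrc2, so their reads are uncertain. Fasl stood at 45.1 and 18.7 CPM (1.27, 0.74 to 1.77). Gzma, a granzyme, had a ratio of 2.24 (2.04 to 2.43), but 92 of its 327 UMIs came from 1 member and only 11.6% of members had any. Nkg7, Klrd1, Ctsw, Cxcr3 and Il2rb lay within 2-fold. With every cell thinned to 2000 UMIs 3 of the 5 genes fell below 2-fold, Klrc1 at 0.95, Ccl5 at 0.68 and Fasl at 0.07, and with cells scaled to 10000 UMIs Ccl5 and Fasl did, at 0.94 and 0.95. The median of the list was 0.40, and 0.042 with every cell thinned to 2000 UMIs. Whether the list's median differed between the groups was not tested. The rule was applied anew to the thinned counts, which gave 149 members, so depth and membership changed together.

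Zbtb16 encodes PLZF, a regulator of innate-like T cells, and was lower in members, with 25 UMIs at 26.9 CPM against 125 CPM (-2.22, -2.85 to -1.65). Cd163l1 (-1.14) and Cd8b1 (-1.73) were lower as well, and so was Cd5, a surface protein that tracks TCR strength (-1.22, -1.80 to -0.69). Cd163l1 was within 2-fold when thinned (-0.13), when scaled per cell (-0.37) and without cells of other types (-0.77), and Cd5 with 0 rule genes (-0.80) and with 2 Tcrg-V4 UMIs (-0.89). Il23r (3.55, 2.85 to 4.27) and Maf (1.42, 0.87 to 1.94) were higher in members, with 31 of the 42 Il23r UMIs in cluster 3. Without the members and KO-labelled cells that had an Il17a, Il17f or Il23r UMI, the log2 ratio of Maf was 0.94, and with 2 Tcrg-V4 UMIs 0.87. None of 8 GIMAP genes and none of 9 lineage regulators passed 2-fold. Over all genes 2.21% were higher and 1.36% lower, so a count of 0 in lists this short does not set them apart. Of 15 interferon-stimulated genes only Xaf1 passed 2-fold, and was lower in members. It no longer did so with 0 rule genes, when thinned or without cells of other types.

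Several activation genes were higher in members than in KO-labelled Vγ1 cells. Of 9 TCR-induced genes Egr1 (1.82, 1.43 to 2.19), Nfkbid (1.39, 0.93 to 1.83) and Cd69 (1.03, 0.82 to 1.23) were at least 2-fold higher, with a list median of 0.81. Cd69 lay just below 2-fold or lower under 5 alternatives (0.70 to 1.0), and Nfkbid was at 0.92 with 0 rule genes. Cd69 and Rgs1 (1.92, 1.69 to 2.15) were the 2 of 7 residency genes past 2-fold. Of 9 immediate-early and heat shock genes Atf3 (3.39, 3.01 to 3.78), Fos (1.61, 1.48 to 1.74) and Hspa1b (1.03, 0.79 to 1.27) were at least 2-fold higher. With 0 rule genes Atf3 stood at 1.55, Fos at 0.38 and Hspa1b at -0.11, and without cells bearing Il17a, Il17f or Il23r Atf3 stood at 1.73 and Hspa1b at 0.66. Atf3 was found in 68.8% of the cells of cluster 3 and in 6.74% of the other members. Cd44, a memory marker, was higher too, at 69.8 and 27.5 CPM (1.34, 0.92 to 1.75). Whether these differences belong to the cells or to the libraries cannot be told apart.

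The remaining genes named by size against KO-labelled Vγ1 cells include gene copies whose reads could be shared. Rpl9-ps6 stood at 638 and 3378 CPM and Rpl9, with which it is identical over 262 aligned bases, at 2955 and 669 CPM, so that the sum of both was 3593 and 4048 CPM. Ftl1-ps1 (3.41, 2.78 to 4.05) is 99.6% identical to Ftl1, and both were higher in members, at 823 and 179 CPM together. Gm8797 (-3.21) and Gm9750 (3.62) were named by size as well. IL-17-type WT cells stood near the members in these genes, with log2 ratios of 0.05 for Rpl9-ps6, 0.30 for Gm8797 and 0.35 for Gm9750. The others were Arhgef12, Lilr4b, Cdkn1a and Lilrb4a, all higher in members, and Znfx1, Tspan32, Vrk2, Cnot6, Zrsr1 and Ring1, all lower. Znfx1, Tspan32 and Vrk2 had only 8, 9 and 8 UMIs in members. They were no longer past 2-fold when cells were thinned to 2000 UMIs, nor was Tspan32 with 0 rule genes. Cdkn1a, a cell cycle inhibitor, had 94 of its 180 UMIs in cluster 3.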

How the data were processed

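The deposited matrices hold raw counts of UMIs per gene and barcode, made by the authors with Cell Ranger (7.0.0 in the file headers, an older release in the methods) on mm10. The labels name a 3′ chemistry, the methods a 5′ V(D)J one. Cells were kept with over 200 and under 4000 genes and under 10% mitochondrial UMIs, and doublets were not removed. The members and gene lists were chosen with earlier results of these data known. With 1 library per group, sums of UMIs were compared without a test, and a sum of 0 was set to 3 UMIs for a ratio. Named genes were all list genes and, per comparison, the 10 highest and 10 lowest ratios, leaving out TCR, sex-linked, mitochondrial, rule and other-cell marker genes. Of these, 1 gene is not reported here. Clusters used 1000 variable genes, 20 components, 15 neighbours and Leiden resolution 0.5 (scanpy 1.11.5, igraph 0.11.9, Python 3.11.15). Intervals used scipy 1.17.1. The scripts were tested on simulated data. Alternatives varied the rule, the cell and gene filters, depth (cells thinned to 2000 UMIs), sex, Scrublet scores and the fold. Thinned cells were grouped anew by the rule, which gave 149 members, 1183 KO-labelled Vγ1 cells and 111 IL-17-type cells.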

Additional observations from a re-analysis of the deposited data

Results flagged for a closer look

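Tcrg-V4 transcripts were found in cells whose genotype label gives the Vγ4 chain as deleted. The share of KO-labelled Vγ1 cells with a Tcrg-V4 UMI was 17.7%, against 0 of 28 KO-labelled cells with 3 or more B cell or myeloid markers and no CD3 or Trdc UMI, whose Clopper-Pearson upper limit is 12.3% of cells with a UMI. Those 28 cells were shallower, with a median of 2460.5 UMIs against 3893. IL-17 transcripts were found among cells selected for few genes of that type. The share of members with an Il17a, Il17f or Il23r UMI was 12.9%, against 1.05% of KO-labelled Vγ1 cells.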

How the results depend on the processing

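No paired analysis was possible because there was 1 library in each group. The recirculation medians stayed within the counting intervals of their middle genes under every alternative run. Against KO-labelled Vγ1 cells, the 123 higher and 76 lower genes became 38 and 8 at 3-fold, 1016 and 617 with a minimum of 10 UMIs and no minimum share, 285 and 255 with at least 2 Tcrg-V4 UMIs, and 219 and 252 in cells with Xist and no Y-linked UMI. The lower genes were 172 with 0 rule genes and 115 without cells of other types. The type 1 median of 0.40 became 0.85 with the minimum of 10 UMIs, 0.95 with 2 Tcrg-V4 UMIs, 0.042 when thinned, 0.67 in cells with Xist and 0.69 without cells of other types. Hspa1b reversed to -0.11 with 0 rule genes. Against IL-17-type cells, the 388 higher and 317 lower genes became 146 and 136 at 3-fold, 1010 and 633 with the minimum of 10 UMIs, 133 and 143 with 100 UMIs, 220 and 200 with 2 Tcrg-V4 UMIs and 178 and 156 when thinned, and 180 were lower in cells with Xist. The type 1 median of 3.20 became 2.36 with 0 rule genes, 2.51 with 2 Tcrg-V4 UMIs, 2.45 in cells with Xist and 3.80 without cells of other types. Trav13-4-dv7 use in members became 41.4% with 0 rule genes and 41.6% when thinned, where KO-labelled Vγ1 cells stood at 8.82%. With 2 Tcrg-V4 UMIs it was 66.7% with both Ccl5 and Ly6c2 and 0.0% with neither. The causes of these shifts were not tested. Of 38 named genes past 2-fold against KO-labelled cells, 29 to 38 stayed past it, and of 88 against IL-17-type cells, 72 to 88. All δ chain alternatives were chosen after seeing the data, as were those without shared barcodes, without IL-17-bearing cells and without cells lacking CD3 and Trdc.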
